A study of Mus musculus with 33 samples.

Results

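The growth hormone receptor, STAT5 and SOCS genes are 9 genes of the pathway by which growth hormone acts on the liver: Ghr, Jak2, Stat5a, Stat5b, Socs2, Socs3, Cish, Igfals and Bcl6. They were chosen by name. Each was read from its probe set with a single gene symbol and the highest mean over all columns, as were all 18193 genes measured, so the members are 9 of 18193 genes. The 9 members have 22 probe sets in all, and 7 of them have more than 1.

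Expression was measured in mouse liver at 12 months of age, on a background mixed from FVB/NT, 129S1/Svlmj and C57BL/6NT. The groups were wildtype liver (wt, n = 7), E2f3a knock-out liver (3aKO, n = 5), and tumours from E2F1 knock-in animals (1KI, n = 5) and from E2F3b knock-in animals (3bKI, n = 4). E2F1, E2F3a and E2F3b are transcription factors that control genes of the cell cycle. The wt and 3aKO livers were normal tissue, and the tumours were hepatocellular carcinomas that arose spontaneously. Insertion site, zygosity and sex are not given in the sources used here, and the labels number the replicates without saying whether each was a separate animal, so p-values measure the spread between these samples. Genotype and tumour cannot be told apart in 1KI and 3bKI. The authors normalized the arrays in 2 separate runs, normalization 1 with wt, 3aKO and 1KI and normalization 2 with the same 12 wt and 3aKO arrays and 3bKI. Hence 1KI and 3bKI are each set against the same normal livers and never against each other, and their results share controls.

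Growth hormone from the pituitary binds its receptor GHR on hepatocytes, which activates the kinase JAK2. JAK2 phosphorylates the latent transcription factors STAT5A and STAT5B, of which STAT5B is the main form in liver, and these enter the nucleus and switch on target genes. The targets include genes for circulating growth factors and their carriers, such as Igfals, and genes for inhibitors that shut the pathway off again, Socs2 and Cish. The related inhibitor SOCS3 is induced mainly by interleukin 6 through STAT3. BCL6 is a transcriptional repressor that recognises DNA resembling the STAT5 site. Male rodents release growth hormone in pulses and females more continuously, which makes this pathway a main source of sex differences in liver gene expression.

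STAT5 binds the palindrome TTCNNNGAA, whose letters read alike on both strands. The RefSeq promoter table (build GRCm38.p6) holds windows of 250 bases before to 50 bases after a gene's start for 8 of the 9 members, 14 windows in all, and Socs2 has no entry. The motif was found in 4 of these 8 members, Cish, Socs3, Igfals and Bcl6, and in 6 of their 14 windows, against 9.554% of all 27025 genes and 8.298% of all 32851 windows in the table. The matches are printed here because they show how the letters differ between the targets, with the motif in capitals, 5′ to 3′ on the strand of the gene.

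Cish (chr9:107296654-107296683, + strand, motifs at bases 1 and 12 of the transcript): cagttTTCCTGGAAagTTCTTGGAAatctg
Socs3 (chr11:117969502-117969530, - strand, 154 bases before the start): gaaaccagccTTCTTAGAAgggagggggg
Igfals, first window (chr17:24877598-24877626, + strand, 236 bases before the start): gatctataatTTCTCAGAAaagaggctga
Igfals, second window (chr17:24878163-24878191, + strand, 58 bases before the start): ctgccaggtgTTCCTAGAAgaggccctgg
Bcl6, second window (chr16:23981433-23981461, - strand, 168 bases before the start): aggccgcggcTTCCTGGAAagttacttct
Bcl6, second window (chr16:23981387-23981415, - strand, 122 bases before the start): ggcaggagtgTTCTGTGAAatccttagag
Bcl6, second window (chr16:23981353-23981381, - strand, 88 bases before the start): atcgactacgTTCCGGGAAtgagagggct

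Cish carried 2 motifs side by side, Igfals 1 in each of 2 windows, and Bcl6 4 over its 2 windows. Only 0.457% of all windows held 2 or more. Not all matches lie upstream of the annotated gene. The 2 Cish motifs lie at the beginning of the transcript, inside the gene. The Socs3 match lies inside its gene (117966079 to 117970336). So do the match in the second Igfals window and those in the second Bcl6 window, and the starts named for them are also inside. The other Bcl6 start is shown at greater length, up to where the annotated gene begins (chr16:23988867-23989102, - strand), because Bcl6 was the member that differed most between the sexes; its motif lies 118 bases before that start.

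Bcl6, first window: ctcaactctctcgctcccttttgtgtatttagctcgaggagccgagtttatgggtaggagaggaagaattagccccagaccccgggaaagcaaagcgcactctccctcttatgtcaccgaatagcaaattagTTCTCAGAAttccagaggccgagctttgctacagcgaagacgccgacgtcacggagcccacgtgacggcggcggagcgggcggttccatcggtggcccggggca

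A match is a run of letters and says nothing of whether STAT5 or BCL6 was bound there in these livers. The letters were not in the windows of Ghr, Jak2, Stat5a or Stat5b.

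Each targeted gene overlapped between wt and the group named for it: E2f1 read 5.83 to 6.47 in 1KI and 5.84 to 6.22 in wt, and E2f3 read 6.42 to 6.88 in 3aKO and 6.59 to 7.03 in wt, and 6.58 to 7.01 in 3bKI against 6.42 to 6.93 in wt of normalization 2. In 1KI, E2f3 read 7.14 to 7.81, above all wt and 3aKO livers of normalization 1. Which part of each gene the probe sets read was not checked, so these values do not test the labels. Sex was read from Xist and Y-linked genes, which gave 3 females and 4 males in wt, 3 and 2 in 3aKO, and 2 and 3 in 1KI. The 3bKI group held 3 females, 1 array of unclear sex (replicate 2, low for Xist and for the Y-linked genes) and 0 arrays read as male. On the first principal component of normalization 1, 1KI replicates 3 and 4 lay at 61.0 and 69.8 and all other arrays between -17.0 and 5.08, so the members' changes against wt in that group are given with and without them. The 3'/5' log2 ratio of beta-actin, a sign of RNA quality, was 0.698 to 0.874 in 3bKI, 0.654 to 1.37 in wt and 1.06 to 1.35 in 3aKO. The mean of 9 hepatocyte markers was 13.87 or more in the normal livers of both runs, 13.64 to 13.86 in 3bKI and 13.18 to 14.03 in 1KI. In bulk tissue fewer cells of a type and less RNA per cell cannot be told apart.

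Few of the pathway's genes passed the test between the groups. In 3bKI tumours Socs2 was 3.69-fold higher than in wt liver, the single call among the 9 members in any of the 5 comparisons between groups. In 3aKO against wt limma called no member and 0% of all genes; at an unadjusted p under 0.05, 1 member (Socs2) was higher, against 3.62% of all genes. In 1KI against wt it called no member and 0.242% of all genes; at the unadjusted threshold 2 members (Stat5a and Stat5b) were lower, against 10% of all genes. In 1KI against 3aKO it called no member and 0% of all genes, and 1 member (Stat5b) was lower without adjustment, against 8.01%. In 3bKI against wt 1 of 9 members was called, against 2.07% of all genes in either direction and 1.09% in the higher direction. Without adjustment 2 members (Socs2 and Cish) were higher there, against 9.84% of all genes, and 1 (Bcl6) was lower, against 10.9%. In 3bKI against 3aKO no member was called although 9.18% of all genes were, and 1 member (Bcl6) was lower without adjustment, against 15.7%. The median of the members' log2 changes was -0.41 in 1KI against wt, with 7 of 9 below 0 (-0.03 over all genes), or -0.15 with 6 of 9 below 0 without 1KI replicates 3 and 4, and between -0.04 and 0.02 in the other comparisons except 1KI against 3aKO, at -0.37.

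More members were called between the sexes in normal liver than in any comparison of groups: Bcl6 was 3.68-fold lower and Igfals 1.38-fold higher in females, 2 of 9 members against 2.53% of all genes (1.1% lower and 1.43% higher in females).

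**Figure D1:**
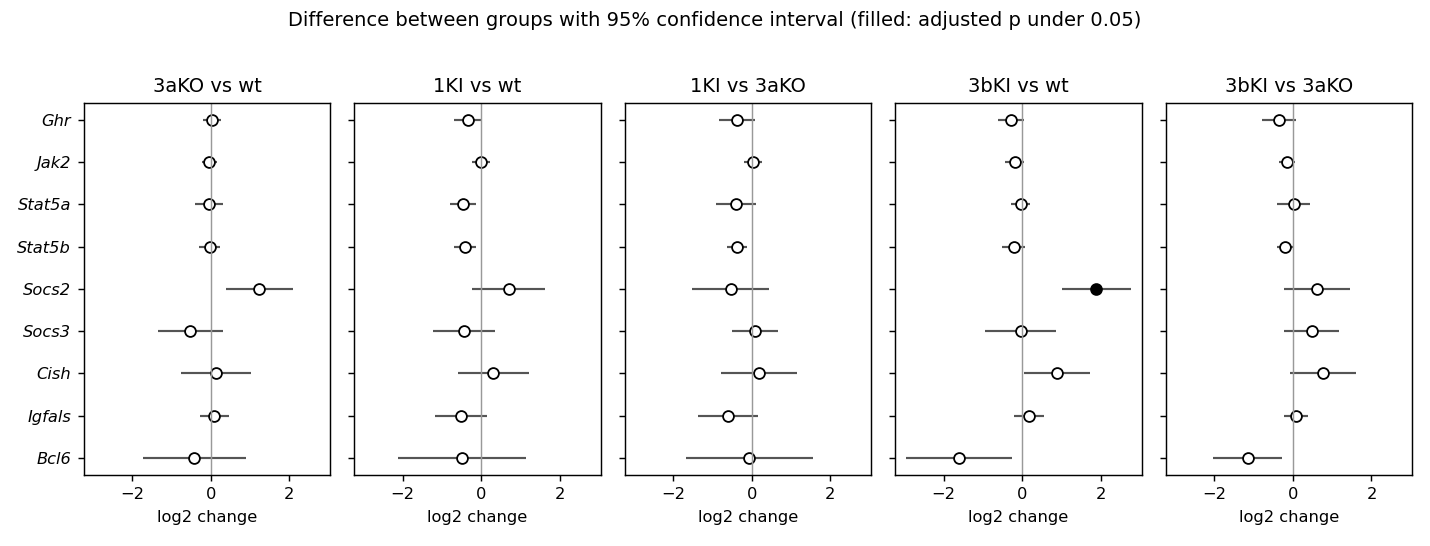
Log2 change of each of the 9 members (rows) in the 5 comparisons between groups (panels), with 95% confidence intervals from limma; a filled point has an adjusted p under 0.05. Socs2 in 3bKI against wt, at 1.88, is the single filled point, and the intervals of Socs2, Cish and Bcl6 are wider than those of the receptor, kinase and STAT genes.

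The receptor and its kinase, the first steps of the pathway, were not called in any comparison. Ghr had a mean of 12.61 ± 0.13 (SD, n = 7) in wt, 12.65 ± 0.24 (n = 5) in 3aKO and 12.28 ± 0.47 (n = 5) in 1KI. The 1KI tumours read 12.68, 12.77, 12.04, 11.64 and 12.25, so replicates 3, 4 and 5 lay below the lowest wt liver at 12.43 and the remaining pair lay among the wt values. The log2 change of 1KI against wt was -0.33 ± 0.17 (SE; adjusted p = 0.291), and -0.05 ± 0.12 without replicates 3 and 4. In normalization 2 the Ghr mean was 12.53 ± 0.13 in wt, 12.59 ± 0.26 in 3aKO and 12.24 ± 0.40 (SD, n = 4) in 3bKI. The 3bKI tumours read 11.91, 12.04, 12.82 and 12.17, with 3 below the lowest wt liver at 12.34 and replicate 3 above the highest at 12.74. Their change against wt was -0.29 ± 0.15 (adjusted p = 0.286).

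The 3 probe sets of Ghr did not move alike. In 1KI against wt they gave -0.33, -0.55 and -0.19, and in 3bKI against wt -0.29, 0.10 and -0.26, none of them called when every probe set was tested. Which transcript form each probe set reads was not analysed here.

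Jak2, the kinase bound to the receptor, read 7.86 to 8.28 in wt, 7.94 to 8.21 in 3aKO and 7.94 to 8.41 in 1KI. Its changes were -0.04 ± 0.09 in 3aKO and -0.01 ± 0.11 in 1KI against wt, the latter -0.15 ± 0.10 without replicates 3 and 4. In normalization 2 it was 7.99 ± 0.20 in wt, 7.94 ± 0.12 in 3aKO and 7.80 ± 0.14 in 3bKI, a change of -0.19 ± 0.11 against wt (adjusted p = 0.354). The groups overlapped in both runs, and the 95% intervals of the 3aKO and 1KI changes reached no further than -0.24 and 0.22.

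The STAT genes were lower on average in 1KI tumours, without passing the test. Stat5a read 7.63, 7.74, 6.82, 7.47 and 7.69 in 1KI, against a lowest value of 7.80, a median of 7.87 and a highest of 8.34 in wt. Every 1KI tumour was thus below every wt liver, as were 0.863% of all genes. The change was -0.46 ± 0.15 (adjusted p = 0.172), and -0.24 ± 0.11 without replicates 3 and 4, the tumours that stood apart. The 3aKO livers, at 8.52, 7.80, 8.02, 7.37 and 7.67, spanned the wt values and the 1KI values other than the 6.82 of replicate 3. Their change against wt was -0.05 ± 0.16. In 3bKI Stat5a was 7.92 ± 0.19, between the 7.96 ± 0.18 of wt and the 7.89 ± 0.40 of 3aKO.

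Stat5b read 8.23, 8.43, 7.99, 8.33 and 7.99 in 1KI and ran from 8.31 over a median of 8.60 to 9.09 in wt. The groups overlapped, since 1KI replicates 2 and 4 were above the lowest wt liver. Set against wt the change was -0.41 ± 0.13 (adjusted p = 0.165), and set against 3aKO it was -0.38 ± 0.12 (adjusted p = 0.238). Unlike for Stat5a and Ghr, the value was nearly as large without 1KI replicates 3 and 4, at -0.39 ± 0.16 against wt. The second Stat5b probe set gave -0.14 ± 0.14 in the same comparison, and the second Stat5a probe set -0.39 ± 0.20. In 3bKI Stat5b was 8.26 ± 0.07, against 8.48 ± 0.27 in wt and 8.44 ± 0.18 in 3aKO, a change of -0.22 ± 0.13 against wt (adjusted p = 0.362). No 3bKI array was read as male, and among females the means were 8.28 in 3bKI, 8.25 in wt and 8.43 in 3aKO. The change of 3bKI against wt turned sign in 3 of 22 alternatives. Stat5a and Stat5b are close in sequence, and whether their probes also bind the other transcript was not checked here.

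Socs2, the inhibitor that limits growth hormone signalling and body growth, was the member called between groups. In normalization 2 the wt livers ran from 7.67 over a median of 8.64 to 9.47, and the 3bKI tumours read 10.17, 10.40, 11.22 and 9.82. Every 3bKI tumour was above every wt liver, which held for 1.9% of all genes. The 3aKO livers, at 10.41, 9.38, 10.67, 9.58 and 8.91, lay between and overlapped both groups. Socs2 rose by a log2 change of 1.88 ± 0.40 (SE) in 3bKI against wt (adjusted p = 0.0366), while the 0.61 ± 0.38 against 3aKO was not called (adjusted p = 0.307).

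In normalization 1 the order of the Socs2 means was wt (8.56 ± 0.80), 1KI (9.27 ± 0.86) and 3aKO (9.80 ± 0.74). Neighbours in that order did not differ beyond their spread. The 3aKO change against wt was 1.23 ± 0.40, large in size but not called (adjusted p = 0.641). It was 1.18 ± 0.57 among females and 1.12 ± 0.41 among males. In 1KI the tumours read 9.90, 8.54, 8.24, 9.38 and 10.26, and the change against wt was 0.70 ± 0.43 (adjusted p = 0.372), or 1.00 ± 0.49 (adjusted p = 0.559) without replicates 3 and 4. The 2 highest of these tumours were the females.

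The Socs2 call in 3bKI rested on the settings. A second probe set of the gene gave 2.03 ± 0.44 (adjusted p = 0.0409 with every probe set tested), while 4 dimmer probe sets gave 0.17 to 0.51 and were not called, and their mean with the others gave 0.92 ± 0.23 (adjusted p = 0.0631). Among females alone, which leaves out the array of unclear sex too, the change was 1.61 ± 0.51 (adjusted p = 0.246), and with the beta-actin ratio as a covariate it was 1.46 ± 0.49 (adjusted p = 0.405). Left out in turn, wt replicates 1 to 5 and 3bKI replicates 2, 3 and 4 each took the adjusted p above the threshold, to between 0.0505 and 0.110, with changes of 1.61 to 2.08; without wt replicate 6, wt replicate 7 or 3bKI replicate 1 it stayed below. The direction was the same in all 22 alternatives, and 8 of them kept the call. Beside the rise, 10 of 10 stellate cell and fibroblast markers had values above 0 in 3bKI against wt, of which Col1a1, Col1a2 and Col3a1 were called. The mean of that list was 8.11 to 8.97 in 3bKI and 7.65 to 8.04 in wt, and its part in the Socs2 difference was not tested.

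**Figure D2:**
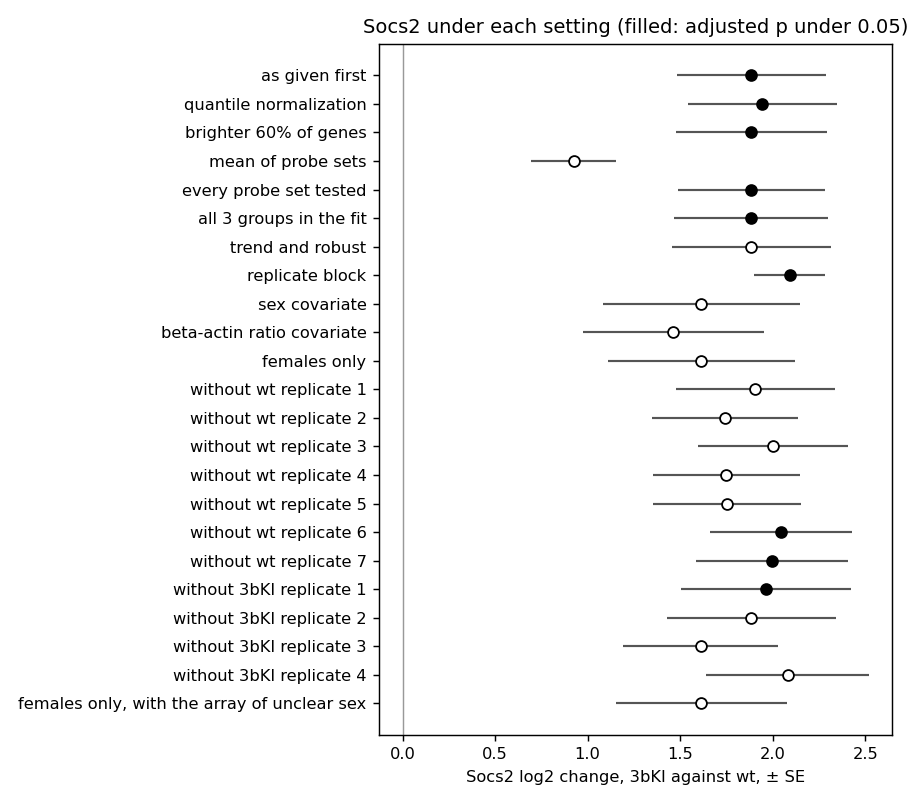
Log2 change of Socs2 in 3bKI against wt under each setting (rows), with the SE as the bar; a filled point has an adjusted p under 0.05. All points lie above 0, between 0.92 and 2.09, and many of them are open.

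Cish encodes the other inhibitor that STAT5 induces. The 3bKI tumours read 9.11, 9.73, 9.44 and 8.72, and the wt livers ran from 7.08 over a median of 8.34 to 9.25, so the groups overlapped. The log2 change from wt was 0.89 ± 0.38 (adjusted p = 0.216), and that from 3aKO 0.77 ± 0.37 (adjusted p = 0.202). Without the normal males (no 3bKI array was read as male) it was 0.77 ± 0.32 against wt and 0.50 ± 0.37 against 3aKO. Without the array of unclear sex as well, the highest of the 3bKI tumours, it was 0.61 ± 0.31 and 0.33 ± 0.37. The change from 3aKO turned to -0.22 ± 0.88 with the beta-actin ratio as a covariate, the single alternative of 20 in which its sign changed. In normalization 1 the means were 8.38 ± 0.82 in wt, 8.51 ± 0.79 in 3aKO and 8.69 ± 0.80 in 1KI, all within the spread of single arrays. The 1KI change against wt was 0.31 ± 0.42, or 0.52 ± 0.51 without replicates 3 and 4.

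Across the 12 normal livers Cish and Socs2 had the highest Pearson's r among the pairs of members compared, at 0.58 (permutation p = 0.0461). Their Spearman's rho was 0.497 (permutation p = 0.101), just under the 0.504 of Jak2 and Socs3. With 21 pairs of members compared, the adjusted p for Cish and Socs2 was 0.484 and 0.761. Their r was 0.37 without the 2 livers farthest from the median of Socs2. Within the sexes it was 0.57 over 6 females and 0.56 over 6 males. Bcl6 and Igfals were left out of these pairs because they fell apart by sex. The pair of Ghr and Socs3 gave r = -0.61 (permutation p = 0.0387, adjusted 0.484) and rho = -0.49 (permutation p = 0.110), and r = -0.70 without the 2 farthest livers.

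Socs3, the inhibitor induced by interleukin 6, had a wide range in wt, from 6.98 over a median of 8.71 to 9.05. The 3aKO livers read 8.57, 7.23, 7.92, 7.37 and 7.30, and the 1KI tumours 7.45, 7.39, 7.67, 8.05 and 8.20, all within the wt range. The changes against wt were -0.52 ± 0.38 in 3aKO (adjusted p = 0.772) and -0.45 ± 0.36 in 1KI (adjusted p = 0.497), the latter -0.52 ± 0.45 without replicates 3 and 4. The 3bKI tumours read 7.53, 7.69, 8.32 and 8.27, inside the 6.69 to 8.93 of wt in the same run, and the change of -0.04 ± 0.41 turned sign in 11 of 22 alternatives.

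Igfals encodes the acid-labile subunit that holds insulin-like growth factors in the circulation. In normalization 1 the females read 11.05, 11.28 and 11.73 in wt and 11.43, 11.44 and 11.28 in 3aKO, and the males 10.85, 10.96, 10.65 and 11.15 in wt and 10.89 and 10.90 in 3aKO. The sexes met at wt replicates 2 and 7 and were apart elsewhere. Females were higher by 0.47 ± 0.11 (adjusted p = 0.0485, or 0.0551 and so not called with every probe set tested). With any of wt replicates 1, 3, 4, 5 or 6 or any 3aKO array left out, the adjusted p was 0.0671 to 0.131, and with the wt arrays alone it was 0.377 for a difference of 0.45 ± 0.18.

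Among the 1KI tumours Igfals kept the same order, 11.24 and 11.43 in the females against 10.68, 9.36 and 10.22 in the males. The mean of 10.58 ± 0.83 was below the 11.10 ± 0.35 of wt, a change of -0.51 ± 0.31 (adjusted p = 0.365), which became 0.02 ± 0.22 without replicates 3 and 4. In 3bKI the values of 11.12 to 11.38 lay within the wt range, and the change against wt was 0.16 ± 0.17 (adjusted p = 0.624). No 3bKI array was read as male, and among females the mean was 11.21 in 3bKI and 11.33 in wt. The change turned sign in 3 of 22 alternatives.

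Bcl6, the repressor, separated the sexes completely in normal liver. The wt males read 8.06, 9.09, 9.66 and 7.73 and the wt females 6.68, 5.91 and 6.87. The 3aKO males read 8.57 and 7.80 and the 3aKO females 6.28, 7.25 and 6.55. No female reached the lowest male, at 7.73, a separation that 1.07% of all genes showed in this direction. The level was lower in females by a log2 difference of -1.88 ± 0.33 (adjusted p = 0.00878), and the second Bcl6 probe set gave -1.43 ± 0.28 (adjusted p = 0.0204 with every probe set tested). In 17 of 18 alternatives the call held, the exception being the wt arrays alone, at -2.15 ± 0.44 (adjusted p = 0.0674).

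**Figure D3:**
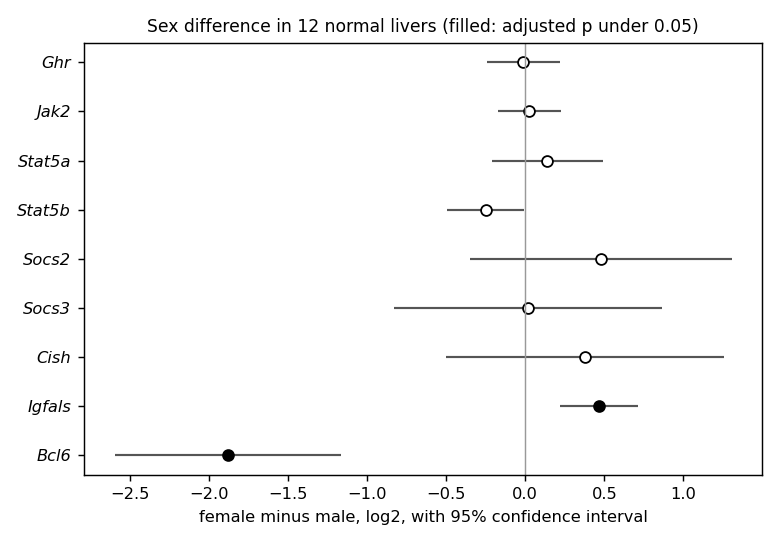
Female minus male difference in log2 expression of each member (rows) over 6 female and 6 male normal livers (wt and 3aKO, normalization 1), with 95% confidence intervals from limma; a filled point has an adjusted p under 0.05. Bcl6 lies far to the left at -1.88, Igfals to the right at 0.47, and the other 7 members are open.

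The 1KI tumours kept the sex order of Bcl6: the females read 5.63 and 5.41 and the males 9.11, 7.69 and 8.26. Both female tumours were below the lowest normal female liver, at 5.91, and the male tumours were within the range of normal males or, at 7.69, just under it. With both sexes together the 1KI mean was 7.22 ± 1.63 against 7.71 ± 1.34 in wt, a change of -0.49 ± 0.76 (adjusted p = 0.732). Without replicates 3 and 4, both males, it was -0.995 ± 0.91 (adjusted p = 0.733). Among females alone the change was -0.96 ± 0.27 (adjusted p = 0.348).

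The 3bKI tumours read 5.69, 5.59, 6.02 and 5.90 for Bcl6, a narrow span at the low end. In the same normalization the wt females read 6.51, 5.58 and 6.51, the wt males 7.59, 8.81, 9.58 and 7.28, the 3aKO females 5.93, 6.91 and 6.23, and the 3aKO males 8.15 and 7.50. The tumours, including the array of unclear sex, thus lay within the range of the normal females, 5.58 to 6.91, and below every normal male. Relative to wt the change was -1.61 ± 0.62 (adjusted p = 0.168), -0.40 ± 0.23 without the normal males, and -0.33 ± 0.25 without the array of unclear sex as well. Relative to 3aKO it was -1.14 ± 0.39 (adjusted p = 0.0910), and by the same steps -0.56 ± 0.22 and -0.49 ± 0.24. Without 3aKO replicate 1 the comparison with 3aKO passed the threshold, at -1.40 ± 0.35 (adjusted p = 0.0477).

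**Figure D4:**
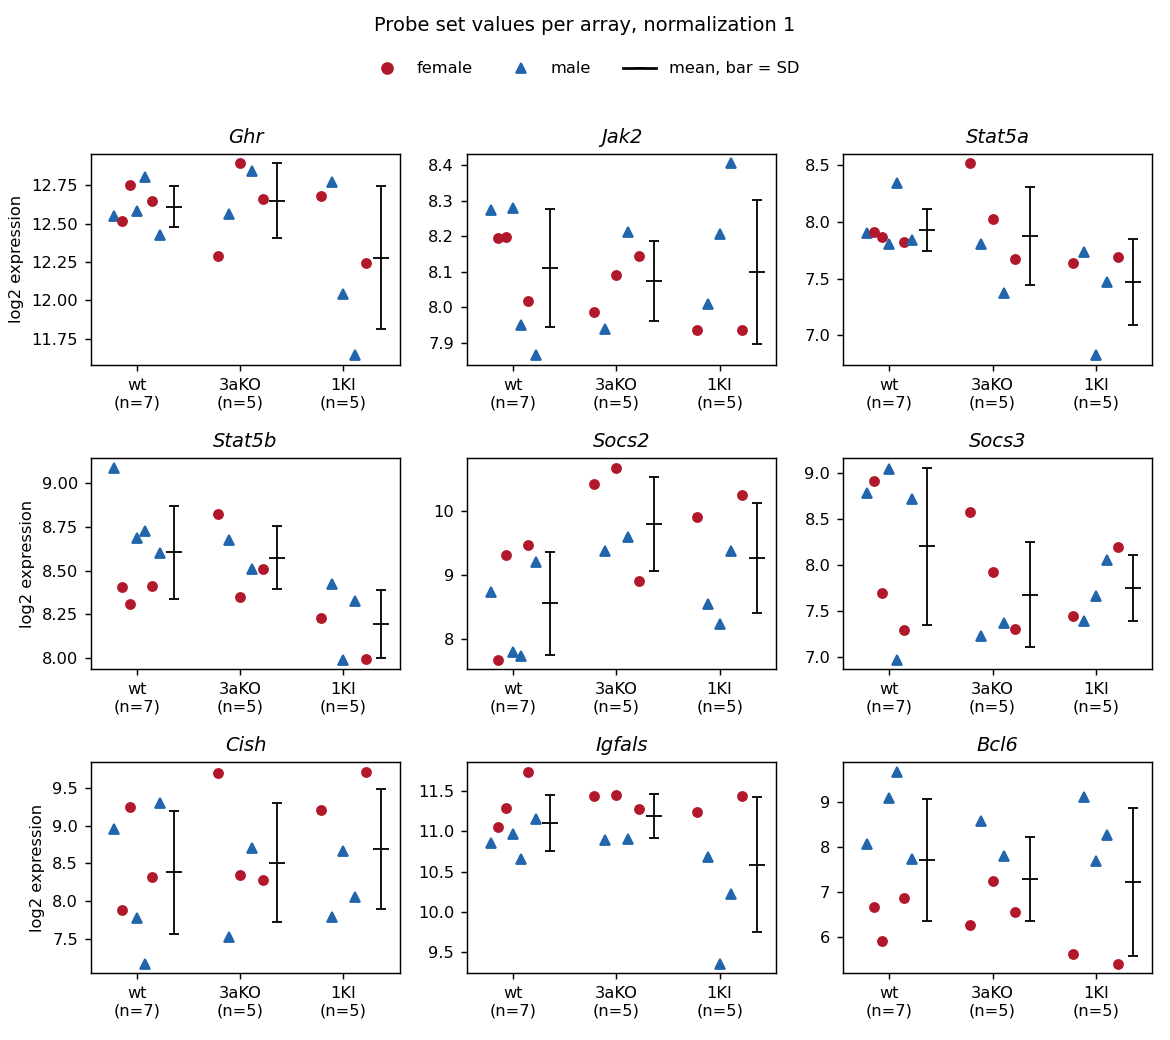
Log2 expression (vertical axes) of the 9 members on each array of normalization 1, by group and sex, with the group mean and SD as a bar beside the points. Bcl6 shows the sexes apart in all 3 groups, the Socs2 mean is lowest in wt, and the 1KI points of Ghr and Igfals reach below the other groups.

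**Figure D5:**
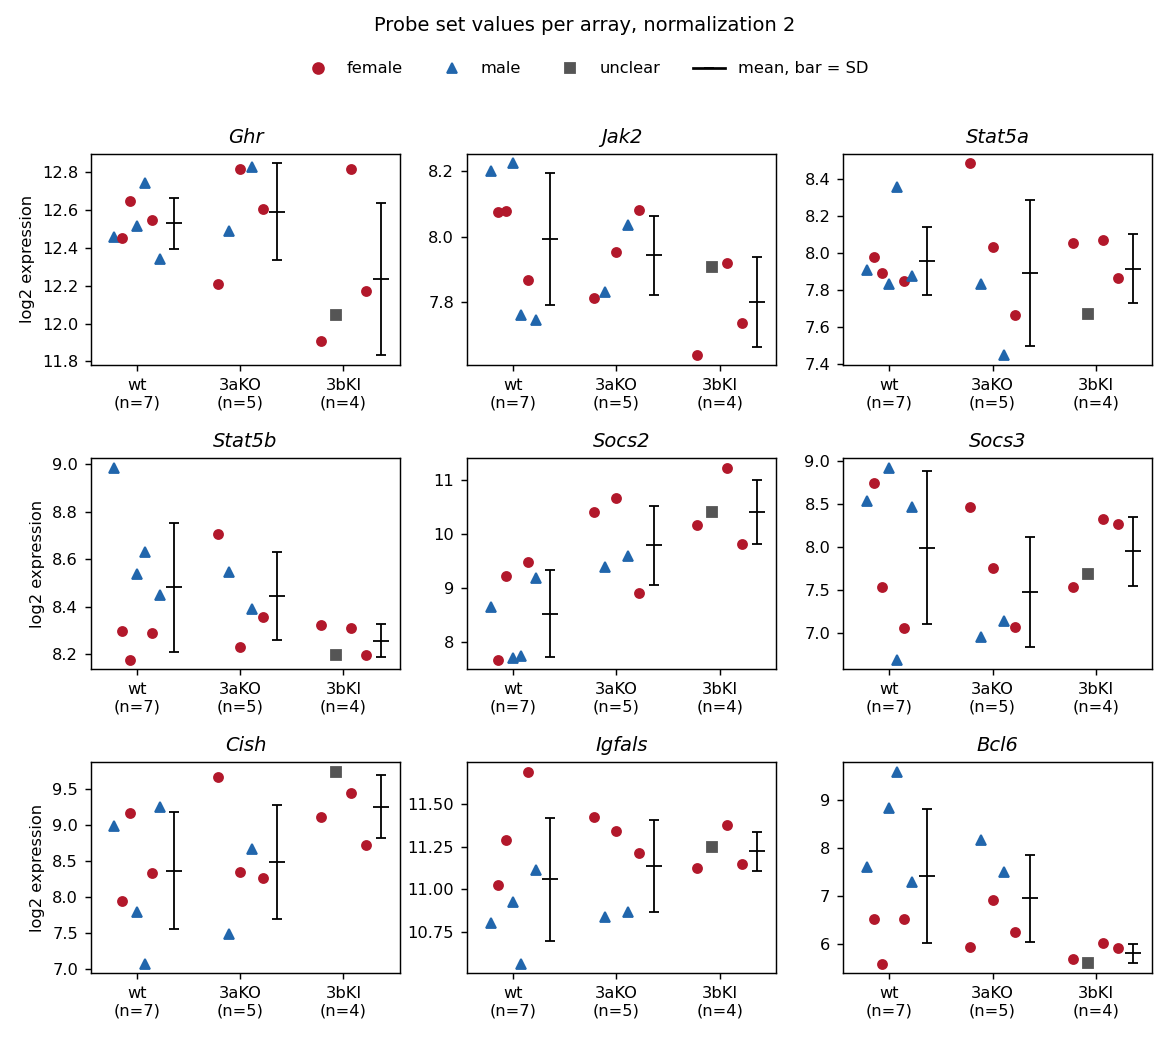
The same for normalization 2, with the 3bKI tumours (3 females and 1 array of unclear sex) in place of 1KI. The 4 tumours sit above all wt livers for Socs2, at 9.82 to 11.22, and between 5.59 and 6.02 for Bcl6, where the normal males start at 7.28.

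The remaining members did not pass the test for sex: Stat5b was lower in females by a log2 difference of -0.25 ± 0.11 (adjusted p = 0.295), Socs2 was at 0.48 ± 0.38, Cish at 0.38 ± 0.41, and Ghr, Jak2, Stat5a and Socs3 between -0.01 and 0.14. Whether sex altered a member's difference between groups was tested in 27 interaction terms. Among these terms the smallest p was 0.0519 in limma, and the smallest adjusted p was 0.795.

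Genes whose expression in mouse liver is known to differ by sex followed the same arrays. Of 13 measured male-biased genes 10 were called lower in females, among them Cyp4a12a, a fatty acid hydroxylase, at -6.95 ± 0.33, and Hsd3b5, a steroid dehydrogenase, at -6.41 ± 0.37. Of 12 measured female-biased genes 10 were called higher, among them Sult3a1, a sulfotransferase, at 6.14 ± 0.57, and Hao2, a hydroxyacid oxidase, at 5.65 ± 0.89. The lists were made from known sex bias, so their direction restates the choice.

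Single arrays departed from the sex read from Xist and the Y-linked genes. The mean of the 12 female-biased genes was 6.15 to 6.80 in the wt males and 6.53 in 3aKO replicate 2, but 9.21 in 3aKO replicate 4, a male by Xist and the Y-linked genes, where normal females lay between 10.04 and 10.43. That liver read 7.80 for Bcl6, second lowest among the normal males, and 9.60 for Socs2. Among the male 1KI tumours the same mean was 7.12, 7.35 and 8.15, and the mean of the male-biased genes was 11.64, 9.97 and 7.64 in the same order of replicates, so 1KI replicate 4 lay below every normal female, the lowest of which was 7.93. Its Bcl6 value, 8.26, stayed among the males.

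The groups held unequal numbers of each sex, and the sex-biased genes are given here beside them. In 3bKI no array was read as male, and 1 was of unclear sex. There 12 of 13 male-biased genes had values below 0 against wt, with a median of -1.73 against 0.01 over all genes. In that list 1 gene was called, the major urinary protein Mup10, at -2.08 ± 0.39 (adjusted p = 0.0274). For the female-biased list the median was 1.00, 10 of 12 values lay above 0, and no gene was called. In 3aKO against wt 11 of 13 male-biased genes were below 0, with a median of -0.64, and 10 of 12 female-biased genes above 0, with a median of 0.99, none called. In 1KI against wt 9 of 13 male-biased genes were below 0 and 10 of 12 female-biased genes above 0, at medians of -0.66 and 0.34, none called. Without 1KI replicates 3 and 4 these counts were 7 of 13 and 11 of 12, and the medians -0.07 and 0.91.

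The other JAK kinases and STAT factors, 7 measured, had no call in any comparison or between the sexes. Stat3, which acts downstream of interleukin 6, had the lowest p of them in 3aKO against wt, at -0.37 ± 0.16 (adjusted p = 0.659), while Stat2 did in 1KI (0.27 ± 0.11, adjusted p = 0.227; 0.35 ± 0.13 without replicates 3 and 4) and Jak1 in 3bKI (-0.24 ± 0.08, adjusted p = 0.113), both relative to wt. Of 14 other SOCS, PIAS and phosphatase genes none was called between groups. Socs1, an inhibitor of interferon signalling, read 5.11 in 3bKI and 4.59 in wt on average, a change of 0.52 ± 0.17 (adjusted p = 0.120). Between the sexes 4 of these 14 were called, all lower in females: Socs7 at -0.55 ± 0.12, Socs4 at -0.35 ± 0.08, Socs6 at -0.30 ± 0.07 and Pias2 at -0.29 ± 0.07.

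Of 13 receptors that signal through JAK kinases 1 was called in 1 comparison. Il6ra, the interleukin 6 receptor, fell by 0.75 ± 0.20 on the log2 scale in 3bKI against 3aKO (adjusted p = 0.0445). In the list of interleukin 6 family ligands and STAT3 responses 2 of 14 rose in the same comparison: Lif, a ligand of that family, by 0.63 ± 0.13 (adjusted p = 0.0209), and Lcn2, an iron-scavenging acute phase protein, by 3.18 ± 0.87 (adjusted p = 0.0496). None of the 14 was called against wt in any group. In 3aKO against wt 13 of 14 had values below 0, and in 3bKI against wt 8 of 14 did, with Lif at 0.47 ± 0.12 (adjusted p = 0.0671). In normalization 2 the mean of the list was 8.76 to 9.40 in 3aKO, 9.15 to 10.59 in wt and 9.38 to 10.58 in 3bKI. The 3 calls of Il6ra, Lif and Lcn2 stand beside 9.18% of all genes called in 3bKI against 3aKO. Markers of other cells moved with them: 8 of 9 hepatocyte markers had values below 0, with Cps1 and Hpd called lower, and 8 of 8 neutrophil, 9 of 10 macrophage and 7 of 7 B and plasma cell markers had values above 0, with Elane, Lyz2 and Cd79a called higher. The mean of the neutrophil list was 5.39 to 6.26 in 3bKI and 5.22 to 5.83 in 3aKO, and that of the hepatocyte list 13.64 to 13.86 against 13.90 to 14.06. The part of these cells in the 3 calls was not tested.

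Growth hormone and STAT5 targets other than the members, 8 genes, had no call between groups. Igf1, the main growth factor that growth hormone induces in liver, stayed between means of 12.95 and 13.12 in normalization 1, and its changes were 0.11 ± 0.06 in 3aKO, -0.07 ± 0.17 in 1KI and 0.15 ± 0.07 in 3bKI against wt. Igfbp3, which carries insulin-like growth factors together with the product of Igfals, was at 1.17 ± 0.28 in 1KI against wt (adjusted p = 0.102). Without 1KI replicates 3 and 4 Igfbp3 was at 0.76 ± 0.24 and Igf1 at 0.28 ± 0.08, so that the value of Igf1 turned sign, neither of them called. Nox4, an oxidase, was lower in females by a log2 difference of -4.85 ± 0.41 (adjusted p = 3.00e-05), the 1 gene of this list called between the sexes, and differed by -3.19 ± 1.21 between 3bKI and wt (adjusted p = 0.164).

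Genes known to rise in liver that lacks growth hormone signalling, 9 measured, also had no call between groups. Relative to wt, Igfbp1, an insulin-like growth factor carrier, was at 2.42 ± 0.75 in 3bKI (adjusted p = 0.104). Cidea, a lipid droplet protein, was at 0.40 ± 0.11 in 1KI (adjusted p = 0.140), or 0.32 ± 0.13 without replicates 3 and 4. Vldlr, a lipoprotein receptor, was at 0.88 ± 0.43 in 3aKO (adjusted p = 0.680). Cd36, a fatty acid transporter, was higher in females by 2.80 ± 0.30 (adjusted p = 0.000259). The 4 measured relatives and partners of BCL6 had no call in any comparison or between the sexes; Bcl6b, its closest relative, was at 0.17 ± 0.10 in 3bKI against wt (adjusted p = 0.367).

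Markers of other cells moved beside these results. Between the sexes 4 of 10 macrophage and Kupffer cell markers were called higher in females, among them Clec4f at 0.62 ± 0.10 and Vsig4 at 0.74 ± 0.13, and 10 of 10 had values above 0. Relative to wt the 1KI tumours had 2 called markers, the endothelial gene Plvap at 1.00 ± 0.16 (adjusted p = 0.0334) and the stellate cell gene Pdgfrb at 0.76 ± 0.12 (adjusted p = 0.0285), and 8 of 10 macrophage markers had values below 0. Without replicates 3 and 4 neither was called, with Plvap at 0.86 ± 0.18 (adjusted p = 0.104) and Pdgfrb at 0.75 ± 0.15 (adjusted p = 0.101). In that setting 1 of 10 stellate cell and fibroblast markers and 1 of 6 bile duct markers were called, among 39 genes in all. In 3bKI the bile duct gene Cldn7 was called against wt, at 1.16 ± 0.19 (adjusted p = 0.0183). Against 3aKO it was called too, at 1.31 ± 0.25 (adjusted p = 0.0197), as were the collagen genes Col1a1, Col1a2 and Col3a1, at 1.15 ± 0.16, 1.15 ± 0.23 and 1.55 ± 0.37, beside the hepatocyte and blood cell markers named above. The part of these cells in the members' values was not tested.

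For each member the 3 genes most like it were taken as those with the highest Pearson correlation over the 12 normal livers of normalization 1, after the mean of each genotype was subtracted; sex was left in. Bcl6 went with Carmil1 (r = 0.96), Eif4g2 (r = 0.95) and Cmah (r = 0.94). Igfals went with Abhd2, Aldh1b1 and Timeless (r = 0.93, 0.93 and 0.92), and Socs3 with the lipopolysaccharide-binding protein gene Lbp (r = 0.92) first. Socs2 had Prcd (r = 0.94), Sry (r = 0.89) and Gpc3 (r = 0.86). Sry lies on the Y chromosome and 6 of these livers were read as female, so what its probe set reads in them is not known. The first-ranked gene reached r = 0.93 for Ghr (Trmt11), 0.96 for Jak2 (Ankrd28), 0.92 for Stat5a (1700123K08Rik), 0.97 for Stat5b (Rsph3a) and 0.88 for Cish (Slc26a8). With 18193 genes and 12 arrays, these are descriptions of these livers, and no member was among the 3 of another.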

How the data were processed

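Per the labels, total RNA was extracted with Trizol and hybridised as biotin-labelled cRNA to Affymetrix arrays. The authors deposited log2 values per probe set in 2 normalization runs; the summarisation method is not given in the sources used here. Of 45101 probe sets, 34945 have 1 gene symbol, giving 18193 genes (probe set of highest mean). The members and gene lists were chosen with earlier results of these data known. Each comparison was fitted on its 2 groups with limma 3.58.1 (lmFit and eBayes, R 4.3.3), two-sided, with Benjamini-Hochberg adjustment over all genes and a call at an adjusted p under 0.05; the scripts were tested on simulated data. Errors are moderated SE after changes and SD after means. Sex was read from Xist (log2 above 10) and from Eif2s3y and Kdm5d on the Y chromosome (their mean above 5; Ddx3y had no probe set with a single symbol), and its difference was fitted with genotype over 12 normal livers. Named genes were the members, the called list genes of largest change (at most 3), or else that of lowest p, and each member's 3 most correlated genes; others were chosen after their values were seen. Permutation p-values used 100000 resamples. The 12 arrays of both runs correlated at r of 0.9985 or more, with a median shift of -0.11. The labels do not say whether same-numbered replicates pair, and correlations of their deviations ran from -0.47 to 0.44. The number of arrays limits the precision.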

Additional observations from a re-analysis of the deposited data

Results flagged for a closer look

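Stat5a in wt replicate 5 of normalization 1, at 8.34, lay far from the other 6 wt livers, the next of which was at 7.91. It was the single such value among 36 sets of member and group with 4 to 10 arrays, where chance gives about 1 in 20. Without it the change of Stat5a in 1KI against wt was -0.39 ± 0.14 (adjusted p = 0.212 in limma).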

How the results depend on the processing

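The number of members called in 3bKI against wt, 1 as given, was 0 with the mean of probe sets, with trend and robust variances, with sex as a covariate, with the beta-actin ratio as a covariate, with females only, and with females plus the array of unclear sex (chosen after seeing the data), and 0 to 1 with an array left out. In 3bKI against 3aKO it was 0, and 0 to 1 with an array left out. In 3aKO against wt it was 0, and 1 with the replicate block (Socs2, 1.54 ± 0.11, adjusted p = 0.0360). In 1KI against wt and 1KI against 3aKO it was 0 under every alternative run. Between the sexes it was 2, 1 with quantile normalization, 0 with the wt arrays alone, and 1 to 2 with an array left out. The Igfals call was also lost with every probe set tested. Of the 54 values of members, 26 kept their sign under all alternatives and 28 did not, the largest of these being Cish in 3bKI against 3aKO (0.77, and -0.22 with the beta-actin ratio as a covariate); no call turned sign. Over all genes, the calls in 1KI against wt ranged from 1 to 313 around 44, those in 3bKI against wt from 0 to 996 around 377, and those in 3bKI against 3aKO from 0 to 3125 around 1671. The labels do not say whether the replicate numbers pair the samples. Of 5 pairs 0 to 1, or of 4 pairs 2, correlated best with their own number, too few pairs to decide it. The cause of these changes was not tested.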
